A study of Homo sapiens with 30 samples.

Results

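The wild-type deaminase domain (DD) of ADAR2 was compared with that of ADAR1 in 8 of the 30 samples of a study of RNA-guided editing in HEK 293T, a cell line from human embryonic kidney. Members were taken from the sample labels alone: 4 wild-type MCP-ADAR2 DD libraries and 4 wild-type MCP-ADAR1 DD libraries, which form 4 pairs matched for localisation signal and guide, at all 382978 listed sites. Within each domain, 1 library carried a nuclear localisation signal (NLS) with the MS2 adRNA guide, 1 the NLS without guide, 1 a nuclear export signal (NES) with guide and 1 the NES without guide. MCP is a coat protein that binds MS2 hairpins and so tethers the domain to the guide. Cells were transfected transiently by lipofection, and poly(A) RNA was taken 60 h later. The controls were 3 sequencing runs of 1 untransfected library, which received neither transfection reagent nor plasmid, a GFP transfection and a transfection of the MS2 adRNA alone. All of these cells are HEK 293T. The sources used here give neither the promoters nor the protein amounts of the fusions, so which domain was expressed and how much of it cannot be told apart. The tables hold shares of edited reads and not expression, so the cell line was not checked by marker genes. The labels were not checked by the deaminases' own messages either, where 22 listed sites of ADARB1, the gene of ADAR2, had mean shares of 0.866% to 1.93% with ADAR2 and 2.31% to 5.34% with ADAR1.

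ADAR enzymes convert adenosine to inosine in double-stranded RNA, and inosine is read as guanosine by ribosomes and by reverse transcriptase. ADAR1 and ADAR2 are known to differ in the sites that they edit in natural messages. Both are known to prefer a uridine or adenosine before the edited base, to disfavour a guanosine there, and to favour a guanosine after it. When the domain is overexpressed without its own double-stranded RNA binding domains, as in these fusions, many messages beyond the guided one are edited, and these off-target sites make up nearly the whole table.

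The sequences around sites that separated the domains, and around sites edited highly by both, are printed as 21-nt windows of GENCODE release 29 transcripts (GRCh38), 5′ to 3′ on the transcript strand with T for U. Capitals mark the edited adenosine with the base before and the base after it. The first 10 were edited more with ADAR2, the next 11 less, the following 2 about as highly with both, and the last is the site in RAB7A that the MS2 adRNA targets, as known from the study and not from the labels.

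APBA2: taccccgagGAGgccaacggg
SCARB2: gagatcatcGAGgccatgttg
MAN2B2: gccctgcagCAGctccagcag
ZC3H18: gtccagtgcTACgtcgagcag
DDAH1: gcccgcgcgGAAcggcagcac
PHF1: gggagggtcAAGatgtgctgg
MICALL1: ggctggcagCAGcagcctggt
LENG1: gcactacagGAGggtcagccg
AMBRA1: tcagacaacCAGggtccatca
TRO: caaaaaatcCAAgggcaagaa
FNDC3A: agtagtactTACctggtcacc
PYROXD1: gtaccatgtTAGgaaaacgct
NUP93: acaggtagtTAAtcgagccca
KLHL15: ttgctagaaAAGaccaagaaa
GATAD1: atcattgttTATtactggtca
TXLNA: agctggtacAAGagctgccaa
GUF1: gggcactatTATcacaccaga
LRRC75A-AS1: tgcttgcctTATgtatcagag
STK35: gacattgttTAGctcttcagg
RAB35: agcccaggcTAGaagccccca
DNAJC1: agctggcatTACtcttgttca
PCBP4: tctgcacccTACccgcccaag
BABAM1: taccaagggTACcagctacaa
RAB7A: aaatccagcTAGcggcagtat

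The base before the edited adenosine was cytidine or guanosine in 8 of the 10 windows with more editing by ADAR2 and uridine or adenosine in all 11 windows with less. These windows were chosen by the editing difference and not by their sequence. A window of this size says nothing of the RNA structure around a site.

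Fewer sites were edited with ADAR2 than with ADAR1 in each of the 4 pairs. Calls rest on the authors' deposited table: a call needed an adjusted p under 0.01 and a share of edited reads over the mean of the untransfected runs. With the NLS and the guide, 4739 sites (1.24% of those listed) were called with ADAR2 and 28530 (7.45%) with ADAR1. With the NLS and no guide, the numbers from the authors' deposited table were 3759 (0.982%) with ADAR2 and 20478 (5.35%) with ADAR1. With the NES and the guide, they were 20241 (5.29%) with ADAR2 and 101178 (26.4%) with ADAR1, and with the NES and no guide 9483 (2.48%) with ADAR2 and 116159 (30.3%) with ADAR1. All ADAR2 counts lay under all ADAR1 counts, although the highest ADAR2 count was close to the lowest ADAR1 count. By the same calls the MS2 adRNA alone had 14 sites, GFP 6, and the untransfected runs 0, 1 and 4.

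Per pair, calls from the authors' deposited table were 6.02-fold, 5.45-fold, 5.00-fold and 12.2-fold fewer with ADAR2, in the order NLS with guide, NLS without guide, NES with guide and NES without guide, which is the order of all such values here. The mean log2 ratio was -2.74 ± 0.59 (SD, 4 pairs), 6.69-fold fewer, with an exact two-sided sign-flip p of 0.12 (1 in 8), the smallest that 4 pairs allow. At the 49011 sites that had been called in glutamate-to-glutamine libraries of both domains, which carry a more active mutant of each, the log2 ratio was -1.58. That choice used no call of these 8 libraries, but the sources used here do not give how sites came to be listed. Each condition had 1 library, so the 4 pairs are the only repeats and they differ in signal and guide. The ratio differed by 0.45 on the log2 scale between NLS and NES pairs (exact p = 1.00) and by 0.57 between pairs with and without guide (exact p = 0.667), where the smallest possible p is 0.333.

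**Figure D1:**
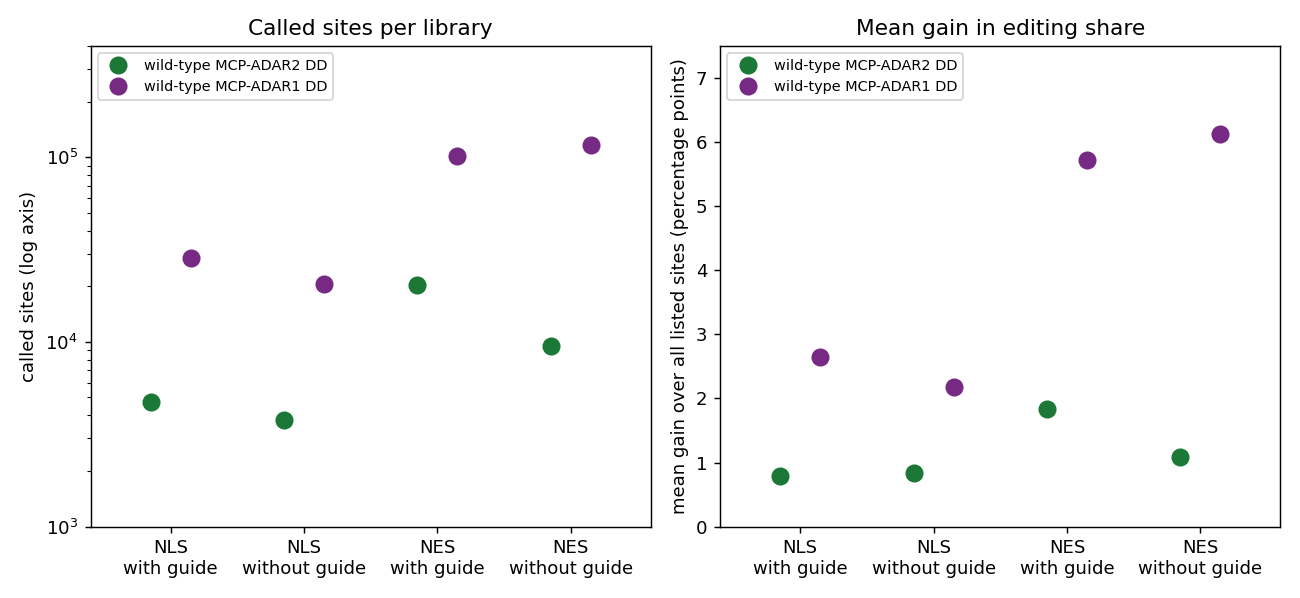
Called sites per library on a log axis (left) and mean gain in editing share over all 382978 listed sites in percentage points (right), for wild-type MCP-ADAR2 DD (green) and wild-type MCP-ADAR1 DD (purple) in the 4 matched conditions. Each point is 1 library. The ADAR2 points lie under their ADAR1 partners in both panels, from 3759 to 20241 against 20478 to 116159 called sites.

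Calls with and without guide stood in different ratios under the 2 signals, with 1 library behind each count. With the NES, ADAR2 had 2.13-fold as many called sites with the guide as without, and ADAR1 0.871-fold. With the NLS these ratios were 1.26 for ADAR2 and 1.39 for ADAR1. The pair with the NES and without guide had the widest gap between the domains. Called sites lay in 1697, 1346, 4055 and 2754 genes with ADAR2 and in 4787, 4071, 7017 and 7189 genes with ADAR1, a mean log2 ratio of -1.32 ± 0.36 (SD, 4 pairs; exact p = 0.12). The median gene with a called site held 1, 1, 2 and 2 of them with ADAR2 and 3, 2, 7 and 8 with ADAR1. The most heavily edited message by this count was EEF2, which codes for a translation elongation factor, in the NLS libraries of both domains. It had 48 and 48 sites with ADAR2 and 123 and 95 with ADAR1. In the NES libraries it was IRAK1, a kinase of innate immune signalling, for ADAR2, with 109 and 72 sites. For ADAR1 it was PRRC2A there, with 335 and 365 sites.

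The share of reads edited, averaged over all listed sites, was also lower with ADAR2. Above the untransfected mean of 0.153%, it gained 0.785, 0.837, 1.83 and 1.09 percentage points with ADAR2 and 2.64, 2.18, 5.71 and 6.13 points with ADAR1. The difference was -3.03 ± 1.73 points (SD, 4 pairs; exact p = 0.12) and the groups did not overlap. Between 45.2% and 57.2% of sites were listed at 0 with ADAR2, and between 11.7% and 32.7% with ADAR1. The level at called sites differed less. Their median gain was 7.51, 5.45, 10.1 and 9.21 points with ADAR2 and 8.35, 7.78, 9.53 and 9.60 points with ADAR1, groups that overlap, with a mean difference of -0.75 ± 1.21 points (exact p = 0.375). This difference was -1.74 points at the glutamate-to-glutamine sites and -0.42 points for gains of at least 5 points, and without 1 pair it ranged from -1.19 points (without the NES pair with guide) to -0.218 points (without the NLS pair without guide). Sites that gained at least 50 points numbered 29, 8, 262 and 65 with ADAR2 and 273, 140, 980 and 1058 with ADAR1. Without read counts the depth is unknown, and so is how it differed between the libraries whose calls are counted.

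Most sites with high mean shares over the 4 ADAR2 libraries also had high shares with ADAR1. Of all 382978 listed sites, 103938 had a mean share of at least 5% with ADAR1 and 21538 with ADAR2. The percentages for the 2 domains count the same shared sites. The lower one for ADAR1 is therefore limited by its longer list. Of 21538 sites with a mean share of at least 5% with ADAR2, 77.1% were also at 5% or more with ADAR1, against 16.0% of the 103938 such ADAR1 sites that were so with ADAR2. At 20% the numbers were 1817 sites with ADAR2 and 10747 with ADAR1, of which 1113 sites were shared, 61.3% of those of ADAR2 and 10.4% of those of ADAR1. The median ADAR1 share at those 1817 ADAR2 sites was 25.5%, and the median ADAR2 share at the 10747 ADAR1 sites was 4.64%.

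**Figure D2:**
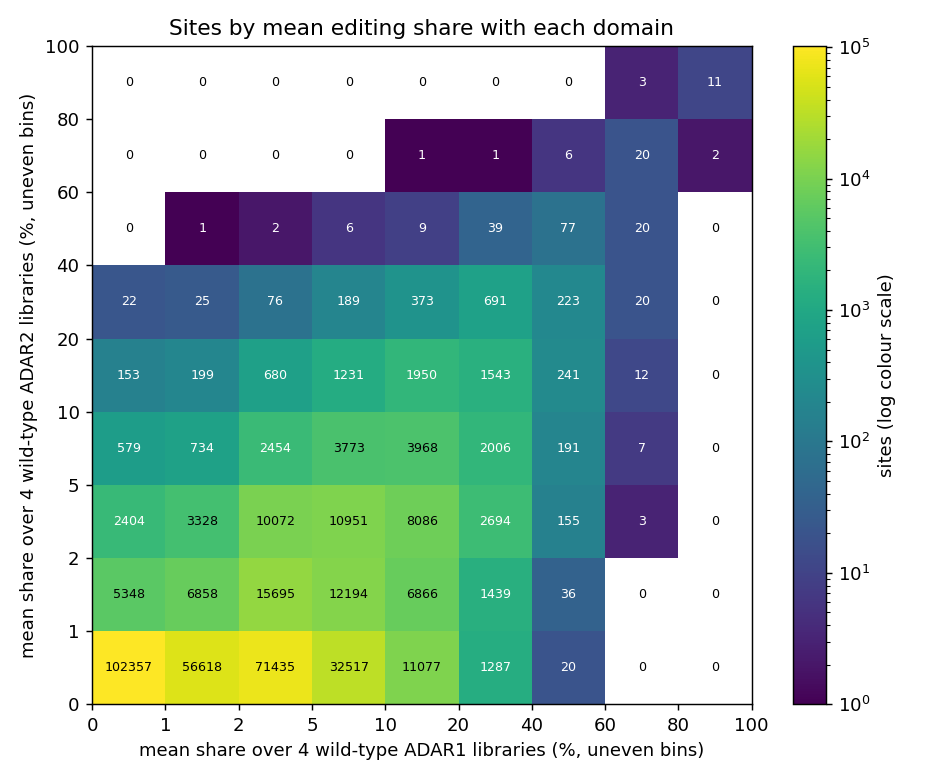
Number of listed sites by mean editing share over the 4 wild-type ADAR1 libraries (horizontal axis) and over the 4 wild-type ADAR2 libraries (vertical axis), in percent with uneven bins; the colour is on a log scale and each cell prints its count. Most sites lie under the diagonal, with 102357 under 1% for both domains and 11077 between 10 and 20% for ADAR1 while under 1% for ADAR2.

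The bases next to the edited adenosine differed between the domains. Of called sites in an exon of 1 gene, cytidine was the 5′ neighbour at 37.1%, 31.6%, 35.9% and 36.3% with ADAR2 and at 23.5%, 25.0%, 27.4% and 28.2% with ADAR1. The groups did not overlap, and the difference was 9.19 ± 3.02 points (SD, 4 pairs, higher in 4 of 4; exact p = 0.12, 0.179 after Benjamini-Hochberg adjustment over 10 such features). A 5′ adenosine stood at 31.2%, 35.6%, 32.8% and 31.8% of ADAR2 sites and at 42.8%, 42.1%, 42.6% and 42.2% of ADAR1 sites, a difference of -9.61 ± 2.23 points with no overlap (exact p = 0.12). At the 49011 sites called in glutamate-to-glutamine libraries of both domains, the differences were 7.06 points for cytidine and -5.94 points for adenosine. Among all listed sites, cytidine was at 30.1% and adenosine at 35.6%, so the ADAR2 calls lay above this level for cytidine in every library and the ADAR1 calls below it.

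The other neighbours differed less among called sites. A 5′ uridine was at 26.9% ± 1.55 with ADAR2 and 27.2% ± 3.27 with ADAR1 (SD, n = 4 each), a difference of -0.28 ± 2.41 points that was smaller than its spread. A 5′ guanosine was rare with both, at 5.04% ± 0.97 with ADAR2 and 4.34% ± 1.25 with ADAR1, against 12.1% of all listed sites. The base after the edited adenosine was guanosine at 72.8% ± 0.91 of ADAR2 sites and 70.1% ± 1.24 of ADAR1 sites (SD, n = 4 each), 2.76 ± 0.74 points higher in 4 of 4 pairs, against 58.7% of all listed sites. Among the 3000 sites of largest gain in each library the differences were -10.1 points for 5′ uridine, 2.08 points for 5′ guanosine and -0.476 points for 3′ guanosine, which turns the last. UAG contexts were at 14.5% ± 1.09 with ADAR2 and 14.0% ± 2.17 with ADAR1, and turned to -7.55 points in the same 3000 sites, while the 5′ cytidine difference there was 15.2 points.

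**Figure D3:**
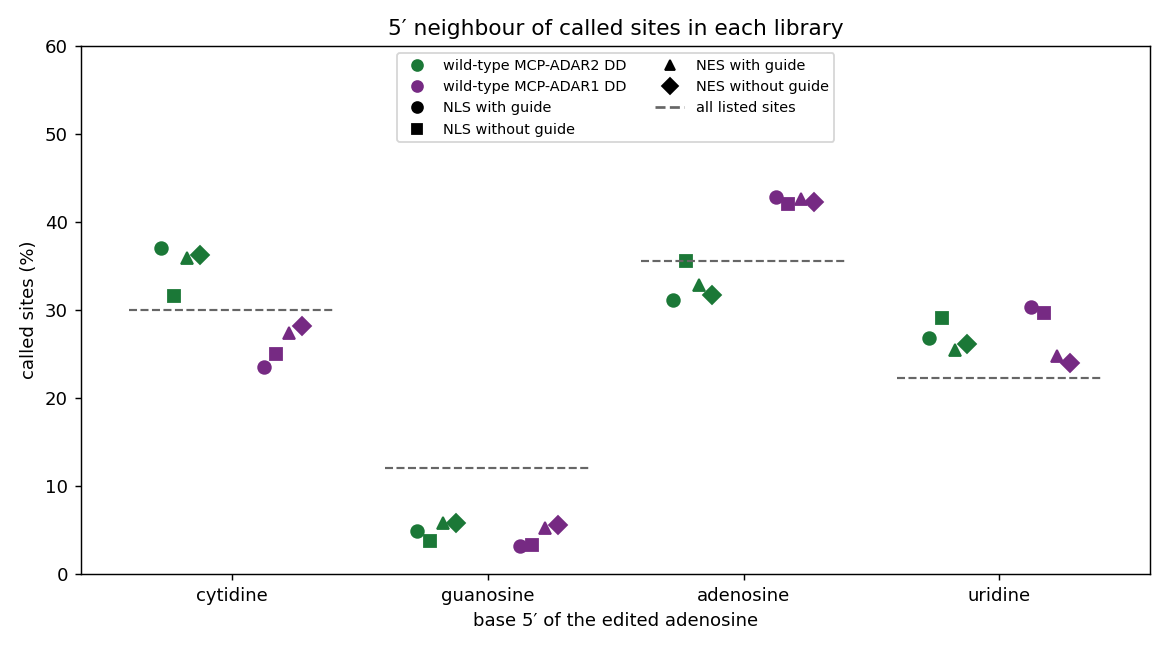
Percentage of called sites with each base 5′ of the edited adenosine, for wild-type MCP-ADAR2 DD (green, left in each group) and wild-type MCP-ADAR1 DD (purple); each symbol is 1 library and the dashed line is the percentage among all listed sites. The 4 ADAR2 libraries lie between 31.6% and 37.1% for cytidine, above the 4 ADAR1 libraries, and between 31.2% and 35.6% for adenosine, below them.

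A pair of libraries had nearly the same number of calls in the authors' deposited table, although they differ in signal and guide. Their read depth is unknown, and the part of list length in the neighbour differences was not tested. ADAR2 with the NES and guide had 20241 called sites and ADAR1 with the NLS and no guide had 20478. Their 5′ cytidine shares were 35.9% with ADAR2 and 25.0% with ADAR1, and their 5′ adenosine shares 32.8% with ADAR2 and 42.1% with ADAR1. Their 3′ guanosine shares were 71.6% with ADAR2 and 71.3% with ADAR1, and 70.9% of the ADAR2 sites and 70.4% of the ADAR1 sites lay in coding sequence.

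The difference in base content was not confined to the neighbouring base. At the second base before the edited adenosine, cytidine was at 40.5% ± 1.35 of ADAR2 sites and 31.2% ± 0.37 of ADAR1 sites (SD, n = 4 each), a difference of 9.38 ± 1.66 points. Uridine at that place was at 12.7% ± 1.43 with ADAR2 and 19.9% ± 0.30 with ADAR1, a difference of -7.22 ± 1.45 points. At the second base after it, the widest difference was -0.978 points, for uridine. From the third to the tenth base on either side, adenosine was less frequent around ADAR2 sites at 14 of the 16 places, in 4 of 4 pairs, and more frequent at the fourth base before, at 21.1% ± 0.95 with ADAR2 and 19.8% ± 0.62 with ADAR1, and by 0.189 points at the seventh after. The widest of these differences was at the eighth base before, with 17.2% ± 0.97 with ADAR2 against 23.4% ± 0.19 with ADAR1, a difference of -6.25 ± 1.14 points. The median G and C content of transcript windows reaching 50 nt to either side was 59.4% around the 1053 windows of sites higher with ADAR2. It was 51.5% around the same number of sites lowest with ADAR2 relative to ADAR1, against 54.5% around 1054 of the listed sites. The base content of the surroundings thus moved with the neighbouring bases, and its part in their difference was not tested.

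Averaged over all listed sites in an exon of 1 gene, without any call, the gain with ADAR2 was 29.3% ± 8.65 of the gain with ADAR1 (SD, 4 pairs). By 5′ neighbour this percentage was 37.9 ± 10.1 after cytidine, 33.8 ± 11.2 after guanosine, 28.1 ± 8.02 after uridine and 24.2 ± 8.31 after adenosine. At the sites called in glutamate-to-glutamine libraries of both domains it was 50.8 ± 10.5 over all neighbours, and 63.3 ± 13.2 after cytidine, 66.7 ± 15.0 after guanosine, 48.1 ± 9.80 after uridine and 43.4 ± 9.35 after adenosine, which puts guanosine above cytidine. In each pair taken alone it was higher after cytidine than after adenosine, at 41.4%, 45.5%, 41.9% and 23.0% after cytidine and 23.3%, 34.1%, 25.7% and 13.9% after adenosine. In levels, both domains edited most where a uridine stood before and a guanosine after, with mean gains of 2.02 ± 0.82 points with ADAR2 and 7.39 ± 3.26 points with ADAR1 over 30495 sites. With cytidine before and guanosine after, over 70066 sites, the gains were 1.55 ± 0.68 points with ADAR2 and 4.26 ± 2.12 points with ADAR1. The lowest of the 16 percentages was 19.6 ± 8.11, between adenosines. The highest, 41.5 ± 15.3 for guanosine before and uridine after, came from 2901 sites with gains of 0.236 points with ADAR2 and 0.674 points with ADAR1. Sites are not replicates, and these percentages carry no test.

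**Figure D4:**
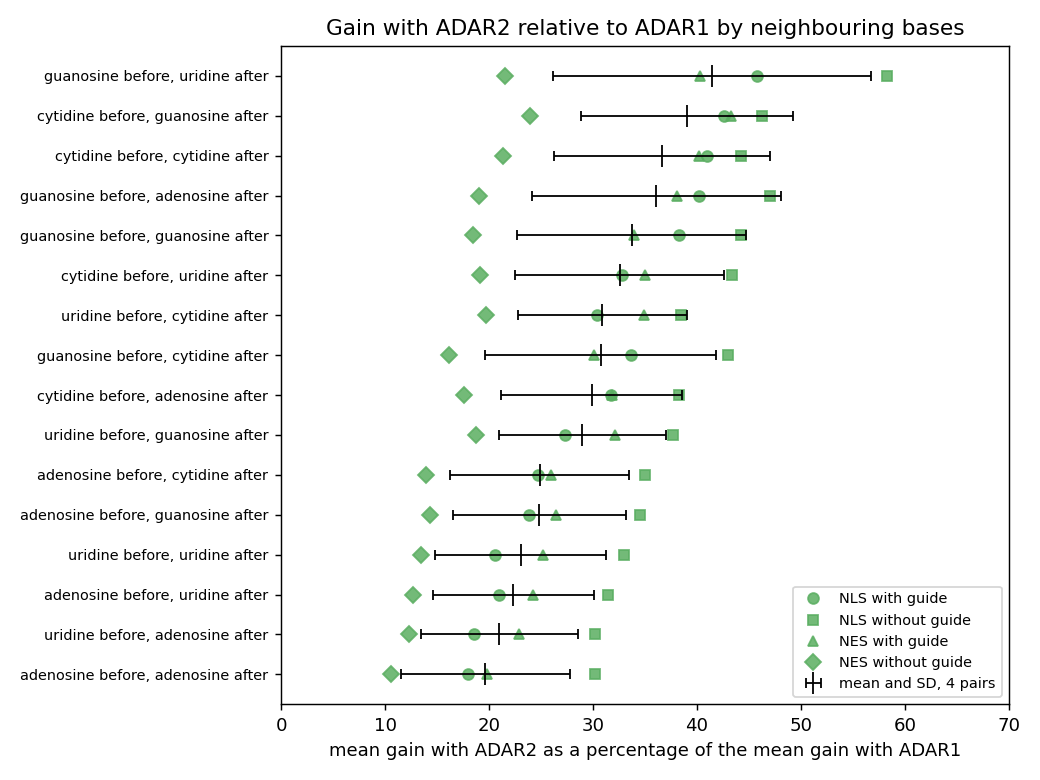
Mean gain in editing share with ADAR2 as a percentage of that with ADAR1, over all listed sites of each of the 16 combinations of 5′ and 3′ neighbour; symbols are the 4 matched pairs, and the bar is their mean with SD. The percentages run from 19.6 between adenosines to 41.5 between guanosine and uridine, and the NES pair without guide is the lowest in every context.

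Called sites fell somewhat more in coding sequence with ADAR2. Coding sequence held 74.4%, 75.3%, 70.9% and 70.6% of ADAR2 sites and 70.8%, 70.4%, 65.8% and 66.2% of ADAR1 sites, groups that overlap over all libraries but differ in the same direction in 4 of 4 pairs (4.51 ± 0.67 points; exact p = 0.12). The 3′ UTR held 22.5% ± 2.99 with ADAR2 and 27.1% ± 3.17 with ADAR1 (-4.63 ± 0.63 points, lower in 4 of 4), and the 5′ UTR 3.05% ± 0.47 with ADAR2 and 2.75% ± 0.24 with ADAR1. Among all listed sites, coding sequence held 65.0%, the 3′ UTR 29.1% and the 5′ UTR 4.05%, and 73.9% of coding sites changed the amino acid. Among coding sites, 73.3% ± 0.53 of ADAR2 and 70.8% ± 0.50 of ADAR1 calls changed the amino acid (2.48 ± 0.81 points, higher in 4 of 4). At the 49011 sites called in glutamate-to-glutamine libraries of both domains, these differences were 0.723 points for coding sequence, -0.302 points for the 3′ UTR and 0.353 points for recoding, so their size depends on which listed sites enter.

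The amino acid changes at called sites also differed, but not separately from the 5′ neighbour. In the changes given here the codon fixes that neighbour. It is cytidine for the glutamine, alanine and proline codons and adenosine for the lysine and glutamate codons. Glutamine-to-arginine changes, at codons that start with cytidine and adenosine, made up 14.0% ± 1.48 of coding ADAR2 calls and 9.69% ± 0.72 of coding ADAR1 calls (SD, n = 4 each), higher in 4 of 4 pairs, by 4.34 ± 1.55 points. Lysine-to-arginine changes, where an adenosine comes before the edited base, were the most frequent with both domains, at 19.8% ± 1.63 with ADAR2 and 21.4% ± 0.72 with ADAR1. Synonymous changes in glutamate codons were at 4.20% ± 0.41 with ADAR2 and 6.40% ± 0.30 with ADAR1, and synonymous changes in lysine codons at 2.43% ± 0.60 with ADAR2 and 4.09% ± 0.19 with ADAR1, both lower in 4 of 4 pairs. Synonymous changes in alanine codons were at 3.87% ± 0.31 with ADAR2 and 2.61% ± 0.08 with ADAR1, and those in proline codons at 3.20% ± 0.29 with ADAR2 and 1.98% ± 0.21 with ADAR1, both higher in 4 of 4 pairs. Among all listed coding sites, glutamine-to-arginine changes were at 9.56% and lysine-to-arginine changes at 15.0%. Synonymous changes there were at 5.36% for glutamate, 3.20% for lysine, 2.66% for alanine and 2.58% for proline. Called sites in stop codons, where editing can extend the protein, numbered 13, 11, 64 and 31 with ADAR2 and 110, 86, 377 and 401 with ADAR1, of 1114 listed. Those in start codons numbered 2, 2, 4 and 2 with ADAR2 and 5, 6, 26 and 28 with ADAR1, of 235 listed. As a share of calls in an exon of 1 gene, stop codon sites were 0.301%, 0.323%, 0.346% and 0.359% with ADAR2 and 0.419%, 0.458%, 0.404% and 0.374% with ADAR1, against 0.316% of all listed sites. Start codon sites were 0.0463%, 0.0587%, 0.0216% and 0.0232% with ADAR2 and 0.0191%, 0.0319%, 0.0279% and 0.0261% with ADAR1, against 0.0667% of all listed sites.

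Single sites were then compared in the 4 pairs by limma, fitted to the shares after an arcsine square root transform, with the pair as a block and Benjamini-Hochberg adjustment over all listed sites. Of 382978 sites, 48015 passed an adjusted p of 0.05 (12.5%), 1139 of them higher (0.297%) and 46876 lower (12.2%) with ADAR2. At an unadjusted p under 0.05 there were 154161. These calls need all 4 pairs: without any one of them limma called 0 sites, with 85384 to 142782 at an unadjusted p under 0.05, and on untransformed shares it called 0 as well. Among the 49011 sites of the glutamate-to-glutamine lists alone, 18700 passed, 1472 higher and 17228 lower with ADAR2. Because the 2 directions were adjusted together, the rate of false calls within the higher sites is not controlled.

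All 4 ADAR2 libraries stood above all 4 ADAR1 libraries at 815 of the 1139 higher sites and below them at 43411 of the 46876 lower sites. Over all listed sites the same held at 0.542% in the higher and 26.5% in the lower direction. At the higher sites the median mean share was 11.1% with ADAR2 and 1.22% with ADAR1, and at the lower sites 0.352% with ADAR2 and 8.45% with ADAR1. A 5′ cytidine stood before 47.8% of the higher sites and 21.5% of the lower ones, a 5′ guanosine before 16.1% of the higher and 5.05% of the lower, and a 5′ adenosine before 18.5% of the higher and 43.9% of the lower. The 3′ UTR held 26.8% of the higher and 33.8% of the lower sites. Higher sites lay in 874 genes and lower sites in 7059. In 829 genes both kinds were found, which is 94.9% of the genes with a higher site and 11.7% of those with a lower site. Of all 8779 genes with a listed site, 80.4% had a lower one.

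Among the 10 sites described here that were higher with ADAR2 (in an exon of 1 gene, same sign in 4 of 4 pairs, ranked by the smallest difference over the pairs, 1 a gene), the widest margin was in APBA2 (ENSG00000034053.14), an adaptor of neurons that binds the amyloid precursor protein. At its E200G codon (chr 15, position 29054483; GRCh38, protein position by a GENCODE transcript), where a guanosine precedes the edited base, the share was 60.9%, 52.6%, 53.8% and 62.5% with ADAR2 and 0, 5.26%, 9.52% and 13.0% with ADAR1. The groups were far apart, with a difference of 50.5 ± 7.22 points (SD, 4 pairs). By the authors' deposited table the site was called in all 4 ADAR2 libraries and in no ADAR1 library. Without read counts, a missing call here or at the sites below does not show that editing was absent.

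SCARB2 codes for a lysosomal membrane protein that carries glucocerebrosidase, and its E157G codon (chr 4, position 76179659) has the same neighbours. The share was 60.8%, 58.6%, 79.7% and 73.6% with ADAR2 and 11.7%, 20.0%, 34.7% and 25.4% with ADAR1, a difference of 45.2 ± 4.76 points. Both domains edited this site, each in all 4 libraries by the authors' deposited table. The highest share was with the NES and guide for either domain.

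At the other recoding sites with a 5′ guanosine, no ADAR1 library was above 7.89%. DDAH1, an enzyme that degrades methylated arginine, had at its E44G codon (chr 1, position 85464915) 37.5%, 29.5%, 46.2% and 37.8% with ADAR2 and 2.38%, 2.38%, 0 and 4.00% with ADAR1. The E228G codon of LENG1 (chr 19, position 54155833) had 33.3%, 21.3%, 33.3% and 43.5% with ADAR2 and 5.00%, 0, 4.26% and 7.89% with ADAR1. Neither site was called in any ADAR1 library by the authors' deposited table, and both were listed at 0 in the untransfected runs.

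Further sites had a 5′ cytidine, in a glutamine codon at MAN2B2 and AMBRA1 and in other codons at MICALL1 and TRO. MAN2B2, an alpha-mannosidase, had at Q406R (chr 4, position 6597272) 54.8%, 28.6%, 66.7% and 42.9% with ADAR2 and 0, 0, 16.0% and 7.14% with ADAR1. AMBRA1, a regulator of autophagy, had at Q675R (chr 11, position 46508236) 26.9%, 21.1%, 44.4% and 28.6% with ADAR2 and 0, 0, 0 and 3.33% with ADAR1. The groups did not overlap at AMBRA1 or MAN2B2, and their ADAR2 shares were higher with guide than without under either signal. The same guide difference stood at SCARB2, DDAH1, MICALL1, ZC3H18 and TRO, but not at APBA2, PHF1 and LENG1. Each value is 1 library, and the share of all listed sites with this pattern was not computed. Over all listed sites, ADAR2 calls were also more with guide, at 4739 against 3759 (NLS) and 20241 against 9483 (NES). The mean gain was 0.785 against 0.837 points (NLS) and 1.83 against 1.09 points (NES). Limma's interaction of domain and guide passed at 0 sites, and a guide effect at these sites was not tested. By the authors' deposited table MAN2B2 was called in 3 ADAR2 libraries and AMBRA1 in 1, and neither in any ADAR1 library.

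The remaining named sites of this direction lay in other codons or, at PHF1, at another base of a glutamine codon. MICALL1, which acts in endocytic recycling, had at S337G (chr 22, position 37922411) 35.5%, 25.0%, 65.1% and 48.6% with ADAR2 and 0, 1.64%, 5.63% and 18.8% with ADAR1. ZC3H18, a protein of nuclear RNA turnover, had at T717A (chr 16, position 88627662) 43.0%, 37.7%, 63.0% and 54.7% with ADAR2 and 15.0%, 10.2%, 13.3% and 14.0% with ADAR1. This was the only one of the 10 sites with a 5′ uridine. PHF1 (Q35Q) and TRO (K301E) had mean differences of 44.1 ± 20.5 and 38.7 ± 20.7 points. All 10 passed with a limma adjusted p between 0.0417 and 0.0424.

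The 12 named sites lower with ADAR2 were mostly after a uridine, and 5 were in 3′ UTRs. FNDC3A, a protein with fibronectin domains, had at T229A (chr 13, position 49145811) 2.44%, 10.0%, 0 and 0 with ADAR2 and 57.7%, 65.6%, 78.6% and 57.8% with ADAR1, a difference of -61.8 ± 11.2 points. In the 3′ UTR of GATAD1, a chromatin zinc-finger protein (chr 7, position 92456822), the share was 0, 14.7%, 0 and 0 with ADAR2 and 76.7%, 63.2%, 75.5% and 78.0% with ADAR1. A 3′ UTR site of KLHL15, a substrate adaptor of cullin ubiquitin ligases (chr X, position 23985791), was listed at 0 in all 4 ADAR2 libraries and at 51.7%, 55.6%, 48.7% and 52.8% in the ADAR1 libraries. At these 3 sites more than 50 points separated the group means, and no ADAR2 library was called by the authors' deposited table.

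NUP93, a scaffold protein of the nuclear pore, had at N339D (chr 16, position 56830615) 8.97%, 17.8%, 12.9% and 11.7% with ADAR2 and 73.9%, 66.9%, 63.2% and 68.6% with ADAR1, and was called in all 8 libraries by the authors' deposited table. PYROXD1, an oxidoreductase, had at L73L (chr 12, position 21445400) 0, 5.00%, 22.2% and 9.52% with ADAR2 and 57.1%, 58.8%, 72.7% and 73.9% with ADAR1. GUF1, a mitochondrial translation factor, had at I479V (chr 4, position 44690816) 0, 0, 0 and 3.57% with ADAR2 and 58.1%, 63.0%, 64.7% and 50% with ADAR1. The ADAR1 shares at all 12 sites were between 48.4% and 78.6%, and the ADAR2 shares were at most 22.2%.

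Of the remaining 6, TXLNA, STK35 and RAB35 had 3′ UTR sites. The mean share was 2.56% ± 3.95 with ADAR2 and 54.2% ± 4.20 with ADAR1 in TXLNA, and 4.55% ± 2.06 with ADAR2 and 53.5% ± 5.15 with ADAR1 in the kinase STK35 (SD, n = 4 each). In RAB35, a small GTPase of endocytic recycling, it was 7.01% ± 1.53 with ADAR2 and 58.3% ± 5.39 with ADAR1. In the lncRNA LRRC75A-AS1 it was 8.91% ± 3.71 with ADAR2 and 58.4% ± 1.91 with ADAR1. DNAJC1 (L156L) had 3.70% ± 1.78 with ADAR2 and 54.0% ± 4.83 with ADAR1, and BRF2 (T92A), a subunit of an RNA polymerase III initiation factor, 10.8% ± 4.25 with ADAR2 and 60.2% ± 2.52 with ADAR1. All 12 had a limma adjusted p of 0.0417. Without one pair, none of the 24 sites chosen in both directions passed, with limma adjusted p of 0.0567 to 0.170, and all kept their direction.

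A few sites were edited highly with both domains, ranked by the smallest gain over the 8 libraries. PCBP4, an RNA-binding protein, had in its 3′ UTR (chr 3, position 51957998) 72.2%, 54.2%, 72.7% and 58.3% with ADAR2 and 57.1%, 50%, 52.5% and 66.7% with ADAR1. BABAM1, a subunit of a BRCA1 complex, had at T276A (chr 19, position 17278884) 53.9%, 45.8%, 66.8% and 55.5% with ADAR2 and 56.4%, 53.3%, 57.1% and 55.4% with ADAR1, a mean difference of -0.06 ± 7.29 points. In both windows a uridine precedes and a cytidine follows the edited base, and the groups overlap. CHD4, TXNL4B and ZC3H7B had mean differences of -16.0, -10.04 and -15.0 points with the same sign in 4 of 4 pairs, and none of the 8 passed limma's threshold, with adjusted p from 0.110 to 1.00.

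**Figure D5:**
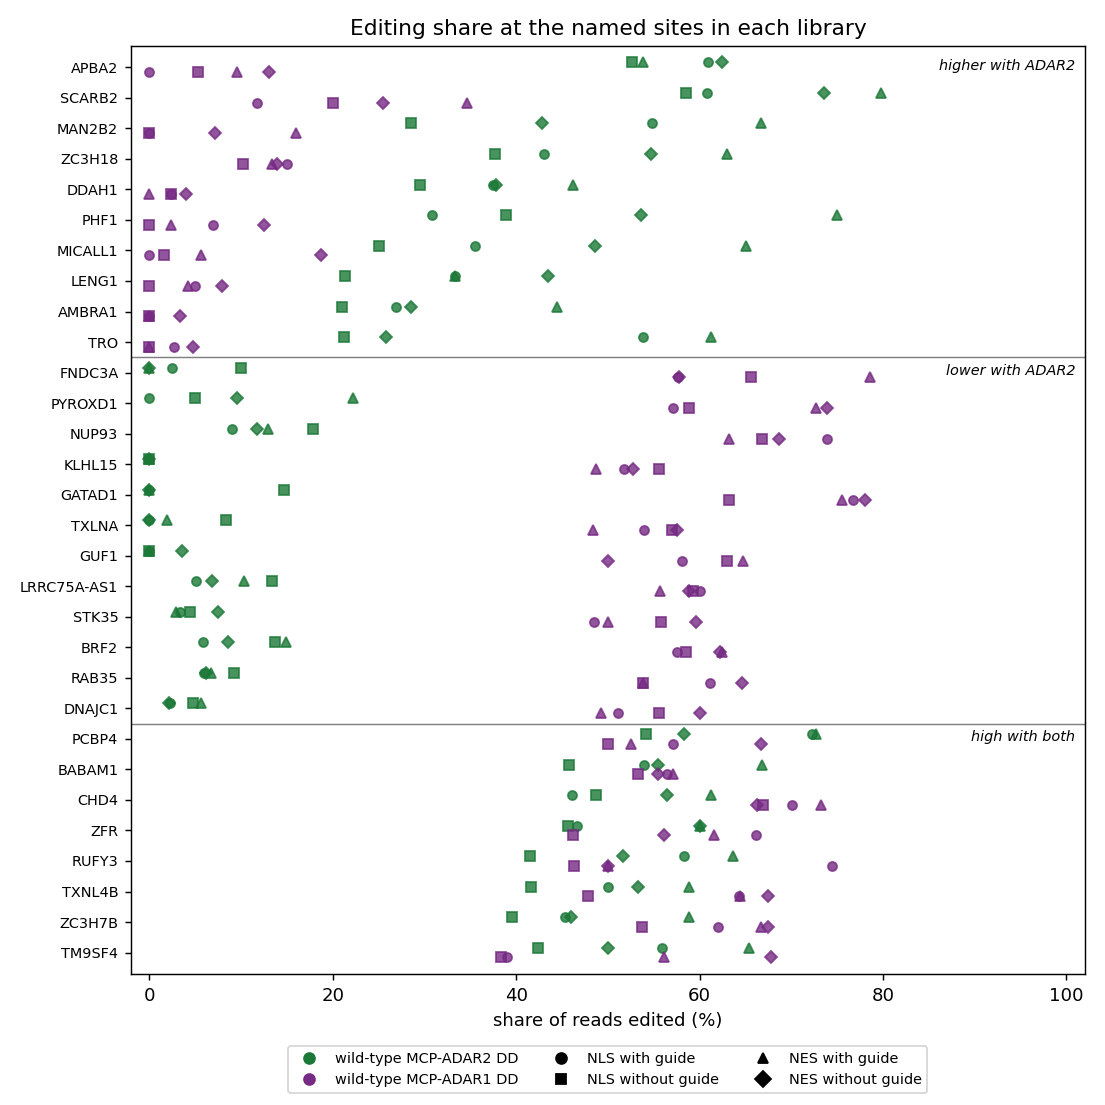
Share of reads edited at the named sites, in percent, for the 4 wild-type ADAR2 libraries (green, upper of each line) and the 4 wild-type ADAR1 libraries (purple), with the symbol giving signal and guide. The 10 top sites have ADAR2 shares from 21.1% to 79.7%, the middle 12 have ADAR1 shares from 48.4% to 78.6%, and in the lowest 8 the colours mix except at CHD4, where the ADAR2 points lie under the ADAR1 points. The sites were chosen for these patterns.

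ZFR, which codes for a zinc-finger RNA-binding protein, carried unlike cases 7 nt apart in 1 message. At Q286Q (chr 5, position 32406948) the share was 46.6%, 45.7%, 60.0% and 60.0% with ADAR2 and 66.1%, 46.2%, 61.5% and 56.1% with ADAR1. At Q284R (chr 5, position 32406955), upstream on the minus-strand message, it was 4.59%, 8.75%, 2.33% and 2.22% with ADAR2 and 50.9%, 44.1%, 46.1% and 43.3% with ADAR1. The groups overlapped at the first and did not overlap at the second, where the mean difference was -41.6 ± 4.67 points (SD, 4 pairs).

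The windows of these 2 sites overlap, and capitals again mark the edited base with its neighbours.

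ZFR, Q284R site: caacagcagCAGcagcaacag
ZFR, Q286Q site: agcagcagcAACagaagcagg

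At the edited site of RAB7A that the guide addresses, a UAG in the 3′ UTR of a small GTPase of late endosomes, editing with both domains was far higher with the guide than without. With guide the share was 7.00% with the NLS and 41.6% with the NES for ADAR2, and 16.0% and 36.6% for ADAR1. Without guide it was 0.676% and 2.13% for ADAR2 and 0.685% and 1.71% for ADAR1, against an untransfected mean of 0.787%. The mean difference over the 2 guided pairs was -2.0 points, with the pairs of opposite sign (-8.98 points with the NLS and 4.98 points with the NES), and limma's adjusted p over the 4 pairs was 0.747. Among sites called from the authors' deposited table, 630 other sites had a larger gain than the target with the NES and guide for ADAR2 and 4307 for ADAR1. With the NLS and guide these numbers were 2723 for ADAR2 and 7611 for ADAR1.

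Adenosines beside the target were edited in different proportions. At the one 10 nt upstream, the share with NES and guide was 11.3% with ADAR2 and 0.592% with ADAR1. At 9 nt upstream it was 11.5% with ADAR2 and 8.98% with ADAR1, and at 8 nt upstream 3.90% with ADAR2 and 14.1% with ADAR1. The NLS fusions with guide had 0, 0.478% and 0 at these adenosines with ADAR2 and 0, 3.98% and 7.34% with ADAR1. The base before the edited one is guanosine at the first of these and adenosine at the other two. Each value is 1 library.

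The gene lists were read as counts against the 0.297% higher and 12.2% lower of all sites. Of 19 genes known as natural recoding substrates, 15 had listed sites, 2116 in all. Of these 13 were higher with ADAR2 (0.614%, in 6 genes) and 196 lower (9.26%, in 13 genes), with a median difference of -0.95 points against -1.49 over all sites. FLNA, which codes for a filamin, had 5 of the higher sites among its 426 listed sites, beside 9 lower ones. A 3′ UTR site of COPA, a coatomer subunit (chr 1, position 160289706), stood at 0, 8.47%, 0 and 0 with ADAR2 and 35.8%, 27.6%, 56.8% and 54.9% with ADAR1. Its 5′ neighbour is guanosine, after which 5.16% of listed sites in an exon of 1 gene were lower with ADAR2 and 0.398% higher. The COPA site is not the natural recoding site, since it lies outside the coding sequence.

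Of 23 genes of double-stranded RNA sensing and binding, 16 had listed sites, 1566 in all, of which 1 was higher with ADAR2 (0.0639%) and 180 lower (11.5%). DHX9, an RNA helicase, had at Q280Q (chr 1, position 182858580) 4.55%, 11.7%, 12.7% and 8.17% with ADAR2 and 46.0%, 40.5%, 57.0% and 55.8% with ADAR1. At the base before it (Q280R), the share was at most 7.78% with ADAR2 and at least 33.1% with ADAR1, and neighbouring positions share reads. ADAR itself had 16 of its 163 sites lower with ADAR2 and 0 higher.

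Of 23 cancer driver genes, 19 had listed sites, 1071 in all, with 2 higher (0.187%, in CTNNB1 and NRAS) and 112 lower (10.5%). SMAD4, a mediator of TGF-beta signalling, had at A458A (chr 18, position 51076703) 4.55%, 3.70%, 3.92% and 2.44% with ADAR2 and 51.6%, 31.1%, 54.2% and 61.9% with ADAR1. This site has a 5′ cytidine, as do Q284R of ZFR and Q280R of DHX9. After a 5′ cytidine, 8.84% of listed sites in an exon of 1 gene were lower with ADAR2 and 0.478% higher. RB1, the retinoblastoma tumour suppressor, had at L832L (chr 13, position 48473366) 0 in all 4 ADAR2 libraries and 29.0%, 28.8%, 54.9% and 48.1% in the ADAR1 libraries. The share of higher sites was thus above that over all sites for the natural substrates and below it for the other two lists, on 13, 1 and 2 sites, and the shares of lower sites were under that over all sites in each list. No list was tested.

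The glutamate-to-glutamine forms of both domains took no part in the limma comparison of these sites and give the same measure in other libraries. Their mean share was higher with ADAR2 at 1049 of the 1139 higher sites (92.1%), and lower at 46575 of the 46876 lower sites (99.4%). Over all listed sites it was higher with ADAR2 at 11.3% and lower at 87.9%. The median share in these forms was 15.0% with ADAR2 and 3.31% with ADAR1 at the higher sites, and 1.11% with ADAR2 and 12.7% with ADAR1 at the lower sites.

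The named sites behaved in different ways in the more active forms. GATAD1 was listed at 0 in all 4 ADAR2 libraries of this kind and at 72.4% ± 11.0 with ADAR1, KLHL15 had 1.39% ± 1.60 with ADAR2 and 64.6% ± 10.5 with ADAR1, and FNDC3A 3.19% ± 0.93 with ADAR2 and 64.8% ± 4.80 with ADAR1 (SD, n = 4 each). BRF2 in turn had 46.1% ± 6.13 with ADAR2 and 72.3% ± 5.48 with ADAR1, and RAB35 29.5% ± 7.00 with ADAR2 and 73.0% ± 11.3 with ADAR1. Both were under 15% in each wild-type ADAR2 library. At SCARB2 the gap was 17.1 points, with 68.8% ± 4.12 for ADAR2 and 51.7% ± 10.9 for ADAR1, and 3 of 4 pairs higher. At MICALL1 it was 40.2 points, with 52.1% ± 9.98 for ADAR2 and 11.9% ± 7.57 for ADAR1, and 4 of 4 pairs higher.

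The difference between the domains also varied with the localisation signal at some sites. Limma's interaction of domain and signal passed at 5763 sites (1.5% of 382978), and that of domain and guide at 0 (0%), with 13237 at an unadjusted p under 0.05. The sites were of low level, with a median share over the 8 libraries of 0.617%. In TCAF1 an adenosine of the stop codon (chr 7, position 143857096) was listed at 0 in all 4 ADAR2 libraries, while ADAR1 stood at 3.70% and 5.88% with the NLS and at 45.5% and 44.4% with the NES. A 3′ UTR site of NSD1, a histone methyltransferase (chr 5, position 177296500), stood at 3.70% and 4.17% with the NLS and 20.7% and 22.2% with the NES for ADAR2, and at 8.93%, 7.69%, 5.08% and 4.35% for ADAR1. The count was 0 when shares were logit transformed, when the trend was left out and when only sites with a mean share of at least 1% were fitted, so it depends on these settings.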

How the data were processed

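Per the labels' protocols, libraries were made from 300 ng of poly(A) RNA and sequenced as paired 100 bp reads. Reads were handled on GRCh38.p12 with STAR 2.6.0c, bcl2fastq 2.18.0.12 and SAMtools, per the submitters' processing notes. The authors deposited, per the file headers, the fraction of reads edited at each site and adjusted p-values for the same sites, without read counts, so depth is unknown and shares have no interval. The sources used here give neither the authors' test nor how sites were selected. Of 30 per-sample columns 9 were not used, and 1 share column has no sample name, so 3 of 4 untransfected runs served as control.

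Sites were annotated with GENCODE release 29. Positions as given were adenosine on the transcript strand at 352425 of 352939 sites in an exon of 1 gene. The kit is not stated to keep strand, and 27757 sites in exons of several genes were left out of sequence counts. Pair means were tested by exact sign-flip permutation, single sites by limma 3.58.1 (R 4.3.3) with an intensity trend and 3 residual degrees of freedom. The fit was also run on simulated data with independent normal noise around the site means. These data held no interactions with signal or guide, so they do not bear on how the calls depend on single pairs. The planned count test could not be run on shares, and its stated fallback was used. Python 3.11.15 with numpy 2.4.6, pandas 2.3.3 and matplotlib 3.10.9 made tables and plots. Members, gene lists, alternatives and the rule for named sites (12 in each direction, 8 high with both, the RAB7A target within 50 nt, up to 3 per gene list, 2 per interaction sign) were chosen with earlier results of these data known. Of the 12 sites higher with ADAR2, 2 are not reported here. The pair block comes from the labels' signal and guide, not from replicate numbers.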

Additional observations from a re-analysis of the deposited data

Results flagged for a closer look

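The difference between ADAR2 and ADAR1 depended on the localisation signal at 5763 of 382978 sites by limma's interaction term (Benjamini-Hochberg adjusted p under 0.05). At 5124 of them the difference of NLS minus NES was positive and at 639 negative, on the arcsine scale. The count fell to 0 with a logit transform, without the trend and at sites with a mean share of at least 1%, and at an unadjusted p under 0.05 there were 69086 sites. The cause was not tested.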

How the results depend on the processing

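Over all alternatives, 121 of 128 recomputed values of the 14 measures tested over pairs kept their direction. Without 1 pair, the log2 ratio of called sites ranged from -2.88 to -2.45, that of genes from -1.49 to -1.22, the mean gain from -3.60 to -2.36 points and the 5′ cytidine difference from 7.74 to 10.1 points, while 5′ uridine ranged from -1.11 to 0.787 and UAG from -0.0379 to 1.14 points, which reverses both. The 5′ uridine difference also turned to 0.242 points with an authors' adjusted p under 0.05 and to 0.128 with a gain of at least 5 points. Among the 3000 sites of largest gain, 3′ guanosine turned to -0.476 and UAG to -7.55 points, and 5′ uridine was -10.1 and 5′ guanosine 2.08 points. At sites called in glutamate-to-glutamine libraries of both domains, the 5′ UTR difference turned to -0.203 points. The cause was not tested.

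Sites that differ by domain in limma numbered 18700 (17228 lower) at those glutamate-to-glutamine sites, where fewer were tested, 0 in both directions on untransformed shares, 88485 (2429 higher, 86056 lower) with no replicate block, 104916 (2836 and 102080) at sites with a mean share of at least 1% and 144556 (4276 and 140280) over all 16 MCP libraries. Without the trend, 1836 were higher. Without any 1 pair the count was 0 in both directions, with a range of 0 to 0. The block is the matched condition and pairs no replicate numbers. None of the 24 named sites passed on untransformed shares or without 1 pair, and under the other 7 alternatives all passed that were tested, 13 of them at the glutamate-to-glutamine sites. Sites whose difference depends on signal fell to 0 with a logit offset of 0.01, with no trend and at a mean share of at least 1%. With shares alone, depth limits cannot be given: a site listed at 0 may have had few reads.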
